A study of Mus musculus with 60 samples.

Results

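Genes for the nuclear-encoded subunits of the mitochondrial respiratory chain were examined in fetal mouse brain. The set was chosen by gene symbol: every row of the array table with a single symbol of the form Nduf followed by a, b, c, s or v and a number, Uqcr, Sdha to Sdhd, or Cox with a number from 4 to 8 and a letter from a to c, without pseudogenes and assembly factors. It held 62 genes of 19938 measured through rows with a single symbol: 35 of complex I, 4 of complex II, 8 of complex III and 15 of complex IV. These 62 genes had 73 rows (transcript clusters, the array's unit of summary), and for the 10 genes with more than 1 row the row of highest mean signal was used. Cox7c, Ndufb4 and Ndufb4b occurred only in rows shared by several symbols and were left out. The rule also passed over Cox4i1, Cox4i2, Ndufab1, Cyc1 and Cycs, whose symbols have another form.

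The respiratory chain passes electrons from NADH and succinate to oxygen and pumps protons across the inner mitochondrial membrane, and ATP synthase uses the proton gradient to make ATP. Complex I (NADH dehydrogenase, Nduf genes) and complex II (succinate dehydrogenase, Sdh genes) feed electrons to ubiquinone, complex III (cytochrome bc1, Uqcr genes) passes them to cytochrome c, and complex IV (cytochrome c oxidase, Cox genes) hands them to oxygen. The catalytic cores of complexes I, III and IV are partly encoded by mitochondrial DNA, and neurons depend heavily on the chain for their ATP. Ndufa4 was first described as a complex I subunit and was later assigned to complex IV; it is counted with complex I here because the symbol sets the group.

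Each of 60 Affymetrix Mouse Gene 1.0 ST arrays, in 12 groups of 5, measured pooled fetal brain RNA from a single dam, so the dam was the replicate. All mice were on the B6.129 background, and the labels gave 4 genotypes: wild type (WT), PON1-knockout (KO), tgHuPON1Q192 (Q-tg) and tgHuPON1R192 (R-tg), the last pair carrying either form of human PON1 as a transgene. PON1 is a serum enzyme that hydrolyses chlorpyrifos oxon (CPO), the active metabolite of the insecticide chlorpyrifos. Dams received CPO on gestational days 6 to 17, and brains were taken on day 18. Doses in mg/kg/d were 0, 0.50 or 0.75 for KO and 0, 0.75 or 0.85 elsewhere. The promoter of the transgenes is not given in the sources used here.

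Pon1 itself went against the label in 10 arrays: its signal was high (9.72 or more) in 5 of the 15 arrays labelled KO and low (5.67 or less) in 5 of the 45 others. Groups are therefore named by their label, and each direction below is one between labels. Fits without those 10 arrays are given for part of the values, and a value given without such a fit can also depend on those arrays. Any 2 arrays correlated between 0.9865 and 0.9984 over the 21789 rows tested. The deposited values were log2 signals from robust multi-array averaging (RMA), and a difference of 1 is a doubling. The lower quartile of an array's signals ran from 6.19 to 6.52 and its median from 7.66 to 7.81. Fetal brain markers were high in every array: the mean over 6 of 6 neuron markers lay between 11.73 and 11.90, and that over 6 of 6 neural progenitor markers between 10.16 and 10.36. The dim level was set at 6.54, under which 95% of 1035 olfactory receptor rows had their mean.

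The start regions of the member genes were read from RefSeq (build GRCm38.p6), which held a window for 51 of the 62, each with 250 bases before and 50 bases after the annotated start. They were searched on both strands for letters bound by 3 factors that are known for nuclear genes of mitochondrial proteins: a 10-letter NRF1 site, CCGGAAG for the ETS family (which includes GABPA), and an 11-letter YY1 site. The NRF1 letters occurred in 10 members (19.6%), against 5.19% of 27025 genes with a window and 7.87% of those measured on the array. The ETS letters occurred in 11 members (21.6%), against 9.93% and 13.6%. The YY1 letters occurred in 7 members (13.7%), against 1.77% and 2.57%, and the 7 were complex I genes. At least 1 of the 3 motifs was found in 16 of 31 complex I, 3 of 3 complex II, 3 of 5 complex III and 3 of 12 complex IV windows. With the 250 bases before the start alone, the counts were 8 (15.7%), 8 (15.7%) and 2 members (3.92%) for NRF1, ETS and YY1. Of the genes measured on the array 6.43%, 10.7% and 1.02% had such a match there. The full window was taken after those counts had been seen. A match is a description of letters and not a site. The bases before the start are printed for 4 members, chosen after their matches were seen: Sdhd and Sdha of complex II, the complex whose genes varied together most closely here, and the widely expressed Cox6a1 beside Cox7a1, a heart and skeletal muscle form of complex IV. Capitals mark a match to any of the 3 motifs.
Sdhd: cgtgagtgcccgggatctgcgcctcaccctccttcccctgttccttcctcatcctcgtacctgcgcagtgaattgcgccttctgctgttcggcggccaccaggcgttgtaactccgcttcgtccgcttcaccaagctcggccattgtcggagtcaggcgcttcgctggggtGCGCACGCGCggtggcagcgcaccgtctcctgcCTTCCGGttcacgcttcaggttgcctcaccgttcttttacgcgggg
Sdha: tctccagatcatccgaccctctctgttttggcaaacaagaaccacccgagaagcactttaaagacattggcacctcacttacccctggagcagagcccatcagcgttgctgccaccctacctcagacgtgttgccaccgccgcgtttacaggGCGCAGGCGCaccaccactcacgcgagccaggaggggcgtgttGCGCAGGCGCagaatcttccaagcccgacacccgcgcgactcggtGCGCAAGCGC
Cox6a1: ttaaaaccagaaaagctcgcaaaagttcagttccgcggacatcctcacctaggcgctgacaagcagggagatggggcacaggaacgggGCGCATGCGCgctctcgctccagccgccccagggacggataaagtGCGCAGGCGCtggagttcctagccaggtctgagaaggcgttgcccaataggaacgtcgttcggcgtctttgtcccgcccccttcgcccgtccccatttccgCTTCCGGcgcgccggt
Cox7a1: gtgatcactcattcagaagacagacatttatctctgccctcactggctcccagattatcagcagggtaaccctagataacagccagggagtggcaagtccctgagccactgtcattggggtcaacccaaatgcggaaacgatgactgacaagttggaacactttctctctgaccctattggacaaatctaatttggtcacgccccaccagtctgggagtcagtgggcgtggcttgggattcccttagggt
Sdhd lies at chr9:50603850-50604099 on the minus strand and had 1 NRF1 match and 1 ETS match. Sdha lies at chr13:74350241-74350490 on the minus strand and had 3 NRF1 matches. Cox6a1 lies at chr5:115348959-115349208 on the minus strand, with an ETS match and 2 NRF1 stretches, of which 1 reads as a match on both strands. Cox7a1 lies at chr7:30183921-30184170 on the plus strand, and none of these letters was found in its window.

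Of the 62 members, 60 had a mean above the dim level. Signals of different genes come from different probes and do not order the genes by RNA amount, so each level is compared only with the same gene in other arrays. Complex I members had means from 6.72 for Ndufa4l2, a paralogue of Ndufa4 known to rise in hypoxia, to 12.33 for Ndufc2, an accessory subunit. Complex II members lay between 9.94 (Sdhd, a membrane anchor) and 10.83 (Sdha, the flavoprotein that oxidises succinate). Complex III members lay between 8.49 (Uqcrfs1, the Rieske iron-sulfur protein) and 11.50 (Uqcrc2, a core subunit). Complex IV members spanned the widest range, from 5.14 (Cox7b2) to 12.24 (Cox6c). The dim members were Cox7b2, known from testis, and Cox8b, known from heart, skeletal muscle and brown fat.

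**Figure D1:**
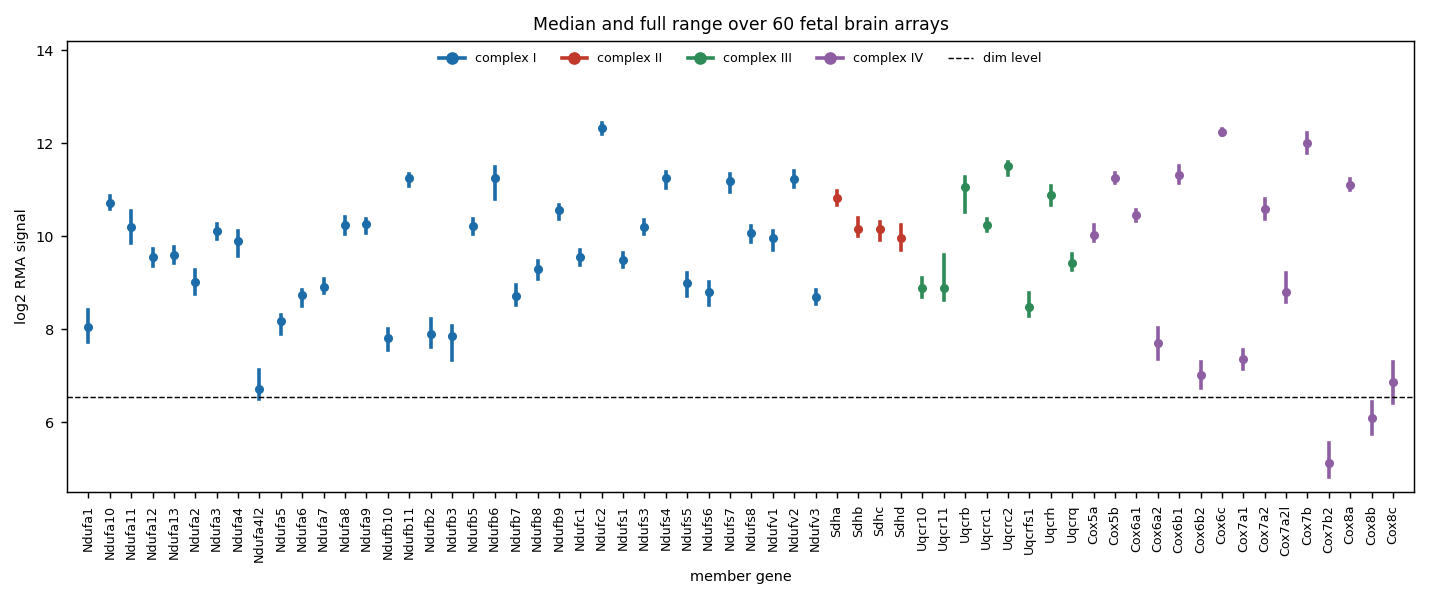
Log2 RMA signal of the 62 respiratory chain subunit genes, ordered by complex: points are medians and bars run from the lowest to the highest of 60 arrays. The dashed line is the dim level of 6.54, and Cox7b2 and Cox8b lie below it; levels of different genes are not comparable.

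The members varied little between arrays. Their median SD over the 60 arrays was 0.081 on the log2 scale, against 0.107 over all tested rows and 0.093 over the 15611 rows above the dim level. The distance between the highest and the lowest of the 12 group means had a median of 0.117 over the members, against 0.158 and 0.137. Neither comparison was matched for brightness: the median of the mean signals was 9.95 for the members and 7.70 over all tested rows. The steadiest members were Cox6c (SD 0.036), Uqcrc2 (0.049), Ndufb11 (0.049), Cox5b (0.050) and Ndufc2 (0.051), all with bright signals. Cox6c, a small subunit of cytochrome c oxidase, stayed between 12.16 and 12.31 in all 60 arrays, and its 12 group means lay within 0.031 of each other. The most variable were Cox8c (0.175), Uqcr11 (0.175), Cox8b (0.166), Cox6a2 (0.159) and Ndufb6 (0.149). Cox8c, Cox8b and Cox6a2 are forms known from testis or muscle, while Uqcr11 and Ndufb6 are subunits of complexes III and I found in all tissues. Uqcr11 ran from 8.64 to 9.59, and its highest array, KO at dose 0 replicate 2, lay 0.65 above the gene's mean.

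**Figure D2:**
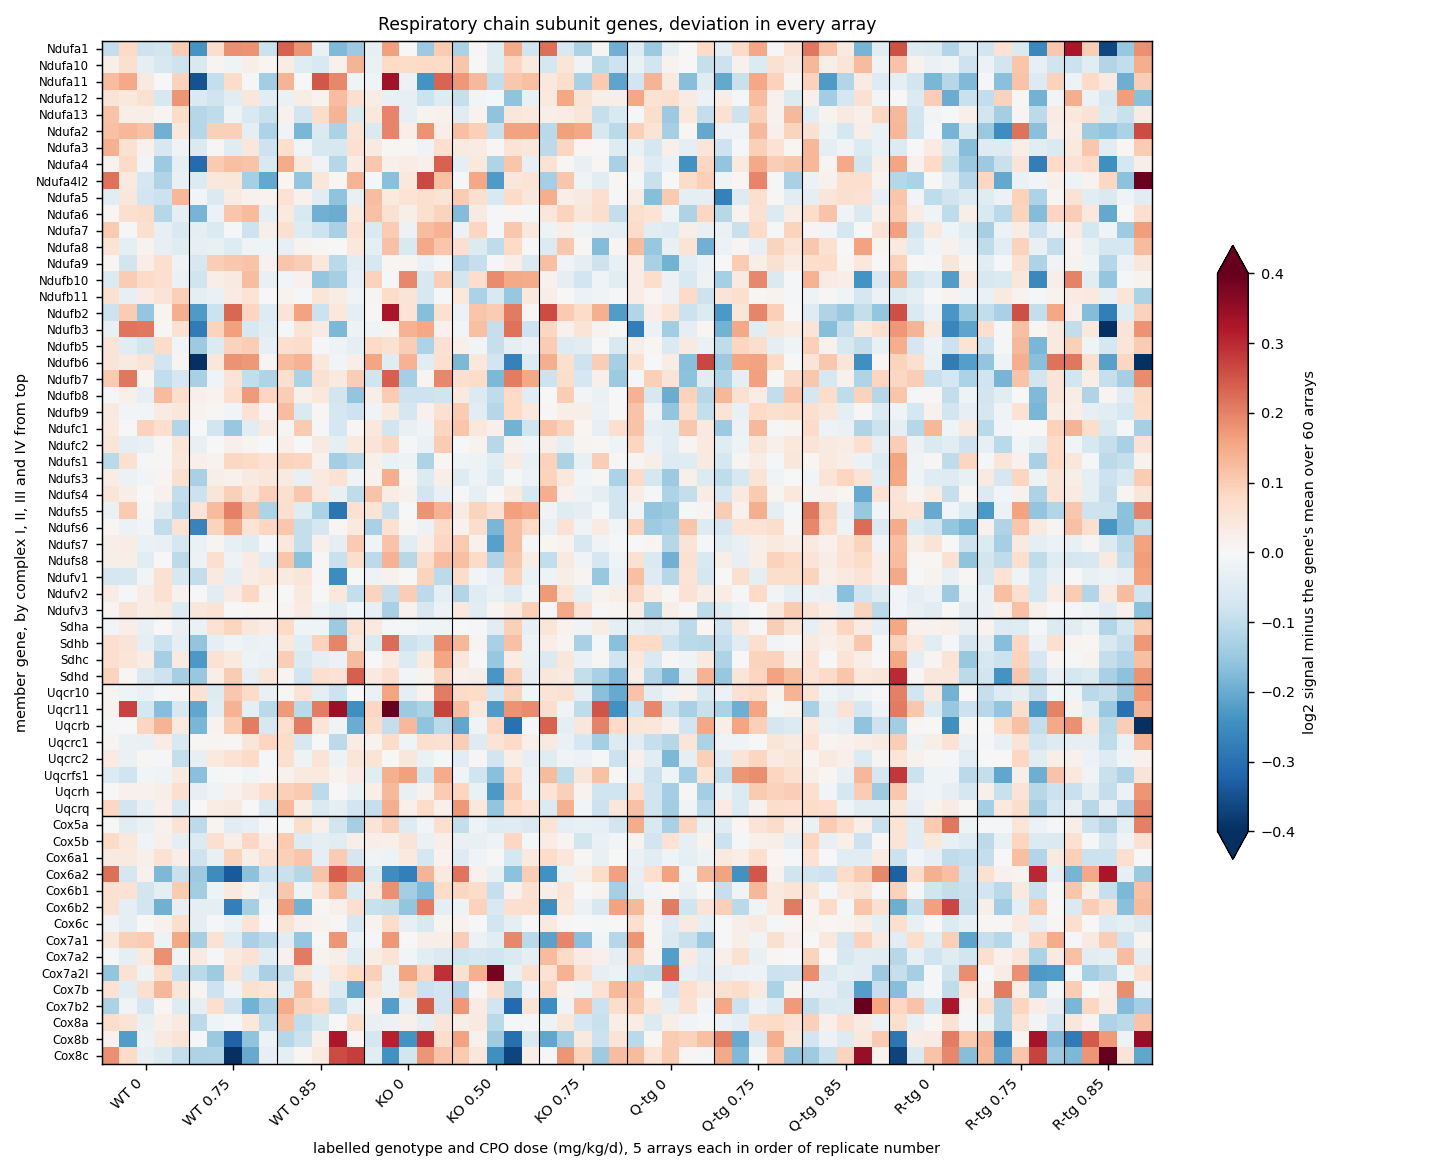
Deviation of each of the 62 genes (rows, by complex) from its own mean in each of the 60 arrays (columns, 5 for each labelled genotype and CPO dose), in log2 units from blue (lower) to red (higher). Colours end at 0.4, and 8 of 3720 values lie beyond that limit; no labelled group stands out as a block across the members.

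Members with more than 1 row showed how far a level depends on the probes. The other rows of Ndufs3, Uqcrb, Ndufa11, Cox5b and Uqcr11 followed the row used, with correlations from 0.71 to 0.97 over the 60 arrays. The other row of Cox7b correlated at 0.55, that of Cox6c at 0.43 and that of Ndufc1 at 0.31. The 2 rows of Ndufb11 correlated at 0.02 and those of Cox7a2l at -0.15. For Ndufb11 and Cox7a2l a small difference between groups therefore belongs to a row and not to the gene as a whole.

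The 12 labelled groups were compared in 1 linear model of limma, with moderated statistics and Benjamini-Hochberg adjustment over the 21789 rows. No member passed an adjusted p of 0.05 in the F test over the 12 groups, and none had an unadjusted p under 0.05; over all rows 0% passed and 4.84% had an unadjusted p under 0.05. The 4 members with the smallest p, Uqcrc1, Ndufa9, Cox7a2l and Ndufa11, had adjusted p = 0.95 in limma. The same holds for the 12 contrasts described below and for the test of whether the response to 0.75 mg/kg/d differed between the 4 genotypes: the number of members that passed was 0 in each, as was that of all rows. Every difference below is given as a value. Intervals limit what the arrays could show: in each contrast the 95% interval of 58 to 62 members lay within 0.3 log2 units of 0. In bulk RNA, fewer cells of a type and less RNA per cell cannot be told apart.

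**Figure D3:**
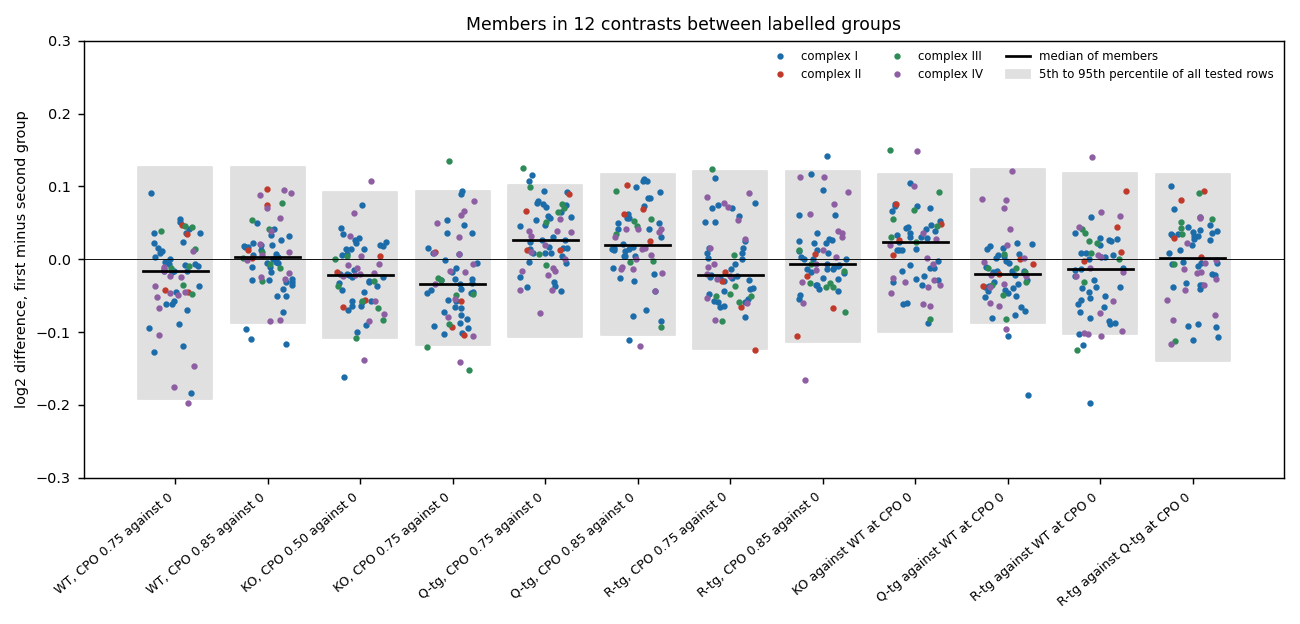
Log2 difference of the 62 members (points, coloured by complex) in 12 contrasts between labelled groups, with their median (black line) and the 5th to 95th percentile of all 21789 tested rows (grey). The medians lie between -0.033 and 0.026, and 0 members passed limma's test in any contrast.

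The first question was the response of WT to the dose of 0.75 mg/kg/d. Ndufa13 (also known as GRIM-19), an accessory subunit of complex I, had 9.59, 9.61, 9.61, 9.66 and 9.70 at dose 0 and 9.47, 9.48, 9.49, 9.52 and 9.56 at 0.75. All 5 treated arrays lay below all 5 control arrays. The difference was -0.13 (SE 0.047, 95% interval -0.22 to -0.032), with adjusted p = 0.456 in limma. It was -0.14 to -0.11 over all alternative fits, with adjusted p from 0.135 to 0.893. Cox7a1, the muscle form of the subunit VIIa, had 7.34, 7.40, 7.45, 7.46 and 7.51 at dose 0 and 7.23, 7.23, 7.26, 7.31 and 7.42 at 0.75. Of the treated arrays 4 lay below every control array, and the difference was -0.15 (SE 0.064, 95% interval -0.27 to -0.019, adjusted p = 0.461 in limma). Ndufa11, an accessory subunit of complex I, was the third member with an unadjusted p under 0.05, and all 3 were lower; 4.84% of the members had such a p, against 10.2% of all rows. This share of the members was below that of all rows. Ndufa13 was the single member whose groups did not overlap, against 2.3% of all rows. Over the 62 members 20 were higher and 42 lower, with a median of -0.016 against 0.005 for all rows; 14 of the 15 complex IV genes were lower.

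The arrays labelled WT at 0.75 also had the lowest mean lower quartile of the 12 groups (6.28, against 6.36 in WT at dose 0) and the lowest mean of 5 of the 9 marker lists: skeletal muscle (6.77 against 6.85), cardiac muscle (6.29 against 6.38), brown fat (6.36 against 6.43), pituitary (6.04 against 6.29) and testis (6.25 against 6.32). With the lower quartile as a covariate the difference of Cox7a1 was -0.11 with adjusted p = 0.945, and that of Ndufa13 was -0.13 with adjusted p = 0.829. The part of these measures in the differences was not tested beyond that fit.

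At 0.85 mg/kg/d in WT no member had an unadjusted p under 0.05, against 2.15% of all rows, and none had groups that did not overlap, against 0.298%. Cox7b, a structural subunit of cytochrome c oxidase, had 11.96, 12.05, 12.06, 12.07 and 12.14 at dose 0 and 11.80, 11.95, 11.96, 12.03 and 12.12 at 0.85. These overlapped, with a difference of -0.083 (SE 0.054, adjusted p = 1.00 in limma) that was -0.040 without treated replicate 5. Ndufb10, an accessory subunit of complex I, had a difference of -0.096 (SE 0.064, adjusted p = 1.00). Ndufa13 lay between 9.51 and 9.72 and Cox7a1 between 7.20 and 7.54 at this dose, overlapping their controls. The contrasts within a genotype share its dose 0 arrays. Members were higher in 34 and lower in 28 cases, with a median of 0.003.

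In arrays labelled KO, no member had an unadjusted p under 0.05 at 0.50 mg/kg/d, against 1.84% of all rows. Ndufv3, an accessory subunit of the NADH-binding flavoprotein part of complex I, had the smallest p there. It had 8.57, 8.64, 8.67, 8.68 and 8.72 at dose 0, 8.66, 8.71, 8.74, 8.74 and 8.80 at 0.50, and 8.70, 8.70, 8.71, 8.76 and 8.85 at 0.75. The differences were 0.075 (SE 0.038, adjusted p = 1.00 in limma) at 0.50 and 0.089 (SE 0.038, adjusted p = 0.999) at 0.75, with groups that overlapped at both doses. Ndufb11 had a difference of -0.064 (SE 0.035) at 0.50 in the row used and -0.12 (SE 0.049) in its other row, with adjusted p = 1.00 in both; the first was -0.040 without treated replicate 4. At 0.75 mg/kg/d, 4 members had an unadjusted p under 0.05 (6.45%, against 2.9% of all rows). Uqcrc1, a core subunit of complex III, had 10.22, 10.25, 10.30, 10.30 and 10.31 at dose 0 and 10.10, 10.17, 10.18, 10.21 and 10.27 at 0.75. Of the treated arrays 4 lay below every control, and the difference was -0.089 (SE 0.038, 95% interval -0.17 to -0.013, adjusted p = 0.999 in limma). Ndufa10, an accessory subunit of complex I, differed by -0.10 (SE 0.045), and Uqcr10 was the other member with such a p. Over the members 18 were higher and 44 lower at 0.75, with a median of -0.033 against -0.020 for all rows. Without the 10 arrays against their label, the difference at 0.75 was -0.082 for Uqcrc1 and 0.13 for Ndufv3, with adjusted p = 1.00 for both. At 0.50 the difference was then 0.051 for Ndufv3 and -0.045 for the row used of Ndufb11.

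In arrays labelled Q-tg, both doses were set against dose 0. Ndufa9, an accessory subunit of complex I, had 10.07, 10.13, 10.21, 10.23 and 10.29 at dose 0, 10.26, 10.28, 10.28, 10.32 and 10.36 at 0.75, and 10.26, 10.26, 10.30, 10.33 and 10.33 at 0.85 mg/kg/d. All 10 treated arrays lay above the control mean of 10.18, and both dose groups overlapped the controls. The difference was 0.12 (SE 0.042, 95% interval 0.030 to 0.20, adjusted p = 1.00 in limma) at 0.75 and 0.11 (SE 0.042, 95% interval 0.025 to 0.20, adjusted p = 0.999) at 0.85. Both values rest on the same 5 control arrays, whose mean was the lowest of the 12 groups. At dose 0, Ndufa9 differed by -0.072 between Q-tg and WT (-0.042 without Q-tg replicate 3) and by 0.10 between R-tg and Q-tg, again over those arrays. Q-tg at dose 0 replicate 3 is among the arrays whose Pon1 goes against the label. Without the arrays against their label the difference was 0.086 at 0.75, and 0.073 at 0.85 with adjusted p = 0.998 in limma. Between genotypes at dose 0 the Ndufa9 difference was then -0.060 for Q-tg against WT and 0.072 for R-tg against Q-tg. Uqcrfs1, the Rieske protein of complex III, had 8.36, 8.41, 8.47, 8.48 and 8.55 at dose 0 and 8.40, 8.56, 8.58, 8.67 and 8.68 at 0.75. The difference was 0.13 (SE 0.061, adjusted p = 1.00 in limma), and 4 of 5 treated arrays lay above every control. These were the 2 members with an unadjusted p under 0.05 at 0.75 (3.23%, against 2.35% of all rows). Cox6a1 was the 1 member whose groups did not overlap at this dose, against 0.909% of all rows (difference 0.055, SE 0.039).

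At 0.85 mg/kg/d in Q-tg, 6 members had an unadjusted p under 0.05 (9.68%, against 3.86% of all rows), 4 higher and 2 lower. Ndufv2, an iron-sulfur subunit of the complex I core, had 11.24, 11.26, 11.26, 11.29 and 11.31 at dose 0 and 11.06, 11.15, 11.18, 11.20 and 11.21 at 0.85. The groups did not overlap, which held for 1.45% of all rows, and the difference was -0.11 (SE 0.043, 95% interval -0.20 to -0.025, adjusted p = 0.999 in limma). Ndufa10 differed by 0.099 (SE 0.045) at this dose, in the opposite direction to its value in KO at 0.75, and the difference between those responses was not tested. Members were higher in 47 of 62 cases at 0.75 (median 0.026, against 0.004 for all rows) and in 44 at 0.85 (0.019 against 0.014). The 4 complex II genes were higher at both doses, with medians of 0.040 and 0.065.

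Markers of choroid plexus differed in the same comparisons. All 4 were higher at 0.75 (median 0.22), each with an unadjusted p under 0.05, and at 0.85 all 4 were higher (median 0.14), 2 with such a p. At dose 0 all 4 were lower in Q-tg than in WT (median -0.17) and higher in R-tg than in Q-tg (median 0.22), again each with such a p, and 0 of 4 passed limma's adjusted test in any of these. Q-tg at dose 0 had the lowest mean of the 12 groups for these markers (8.95), as for Ndufa9. Their part in the differences of the members was not tested.

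In arrays labelled R-tg, no member had an unadjusted p under 0.05 at 0.75 mg/kg/d, against 5.31% of all rows. Sdhd, the membrane anchor whose start region is printed above, had 9.83, 9.94, 9.98, 9.98 and 10.24 at dose 0 and 9.70, 9.84, 9.86, 9.91 and 10.05 at 0.75. The difference was -0.13 (SE 0.069, adjusted p = 0.898 in limma) with groups that overlapped, and it was -0.17 to -0.065 when 1 array at a time was left out, with -0.065 without control replicate 1 and -0.082 without treated replicate 2. Sdha had 10.80, 10.84, 10.84, 10.85 and 10.98 at dose 0 and 10.77, 10.77, 10.78, 10.82 and 10.84 at 0.75, a difference of -0.065 (SE 0.038, adjusted p = 0.898 in limma) that was -0.035 without control replicate 1. The highest control array of both genes was replicate 1. Without the arrays against their label the difference was -0.17 for Sdhd and -0.061 for Sdha. All 4 complex II genes were lower at 0.75 and 3 of 4 at 0.85, with medians of -0.047 and -0.044; without control replicate 1, whose mean complex II deviation of 0.17 was the highest of the 60 arrays, 2 of 4 were lower at each dose, with medians of -0.016 and -0.011. Control replicate 1 also had the highest median signal of the 60 arrays (7.81), with a lower quartile of 6.20. The part of its signal distribution in these values was not tested. Of all rows 41.0% were higher at 0.75 and 45.1% at 0.85. At 0.85 mg/kg/d, 3 members had an unadjusted p under 0.05 (4.84%, against 4.86% of all rows). Ndufa3, an accessory subunit of complex I, had 9.94, 10.05, 10.06, 10.12 and 10.15 at dose 0 and 10.07, 10.12, 10.16, 10.22 and 10.22 at 0.85. Its difference was 0.094 (SE 0.041, adjusted p = 0.987 in limma), and that of Cox7b was 0.11 (SE 0.054, adjusted p = 0.987), while the other row of Cox7b had 0.009 (SE 0.065). Cox7b2 was the other member with such a p, and its signal was dim.

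Between genotypes at dose 0, the question was whether the labelled genotype goes with a difference in the fetal brain without CPO. Cox7a2l, a relative of Cox7a2 known for its part in joining complexes III and IV into supercomplexes, had 8.67, 8.74, 8.80, 8.88 and 8.89 in WT and 8.80, 8.91, 8.92, 8.98 and 9.12 in KO. Of the KO arrays 4 lay above every WT array, and the difference was 0.15 (SE 0.071, 95% interval 0.006 to 0.29, adjusted p = 0.999 in limma). Without the arrays against their label it was 0.23 with adjusted p = 0.488. The other row of Cox7a2l gave -0.11 (SE 0.071, adjusted p = 0.999) in the same contrast, so the 2 rows had opposite signs. It was the 1 member with an unadjusted p under 0.05 (1.61%, against 3.25% of all rows), and no member had groups that did not overlap (0.633% of all rows). In the row used, the means in KO were 8.94 at dose 0, 8.95 at 0.50 and 8.86 at 0.75, and the 9 other groups had means from 8.75 to 8.83. Ndufa10 was 0.076 higher in KO than in WT (SE 0.045, adjusted p = 0.999), and 0.12 higher without those arrays (adjusted p = 0.733).

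Q-tg against WT gave 1 member with an unadjusted p under 0.05 (1.61%, against 1.66% of all rows). Ndufb3, an accessory subunit of complex I, had 7.82, 7.85, 7.90, 8.05 and 8.06 in WT and 7.57, 7.70, 7.81, 7.82 and 7.85 in Q-tg, a difference of -0.19 (SE 0.085, 95% interval -0.36 to -0.014, adjusted p = 1.00 in limma). Without the arrays against their label the difference of Ndufb3 was -0.14. Cox6a1 was the 1 member whose groups did not overlap, against 0.734% of all rows (difference -0.064, SE 0.039). R-tg against WT gave 3 (4.84%, against 3.93% of all rows). Cox6a1, the widely expressed form of subunit VIa, had 10.47, 10.48, 10.49, 10.49 and 10.51 in WT and 10.35, 10.36, 10.37, 10.42 and 10.44 in R-tg. The groups did not overlap, and the difference was -0.099 (SE 0.039, 95% interval -0.18 to -0.021, adjusted p = 1.00 in limma). The 5 WT arrays at dose 0 were closer together (SD 0.0145) than those of WT at 0.75 (SD 0.0689) or 0.85 (SD 0.0866). Ndufa11 had 10.21, 10.25, 10.30, 10.33 and 10.36 in WT and 10.03, 10.03, 10.10, 10.14 and 10.17 in R-tg, again without overlap. Its difference was -0.20 (SE 0.081, 95% interval -0.36 to -0.034, adjusted p = 1.00), and -0.15 (SE 0.109, adjusted p = 1.00) in its other row. With Ndufv2, 3 members did not overlap between R-tg and WT at dose 0, against 0.587% of all rows; none of the 3 passed the adjusted test. R-tg against Q-tg gave 5 members with an unadjusted p under 0.05 (8.06%, against 5.43% of all rows), among them Uqcrc1 (0.091, SE 0.038) and Ndufa9 (0.10, SE 0.042), both with adjusted p = 0.861 in limma. Uqcrc1 had 10.11, 10.13, 10.15, 10.20 and 10.29 in Q-tg and 10.21, 10.22, 10.26, 10.30 and 10.34 in R-tg, which overlapped. Ndufv2 was the 1 member without overlap there, against 0.665% of all rows (difference -0.088, SE 0.043).

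Whether the response to 0.75 mg/kg/d differed between the 4 labelled genotypes was tested as an interaction. Of the members 3 had an unadjusted p under 0.05 (4.84%, against 6% of all rows), and none passed. Uqcrc1 had the smallest p (F = 4.17, adjusted p = 0.824 in limma); its group means went from 10.22 to 10.27 in WT, 10.28 to 10.19 in KO, 10.17 to 10.25 in Q-tg and 10.26 to 10.22 in R-tg. Ndufa13 followed (F = 3.08, adjusted p = 0.824), and Ndufa9 was the third.

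Related gene lists gave the same number of calls, 0 in every contrast and in the F test over the 12 groups in limma. At an unadjusted p under 0.05 in that F test there were 0 of 16 ATP synthase subunits, 1 of 9 electron carriers and core subunits outside the symbol rule, 0 of 13 complex I assembly factors, 2 of 24 assembly factors of complexes II, III and IV, 2 of 13 regulators of mitochondrial biogenesis, 0 of 13 enzymes of the TCA cycle and 0 of 2 measured mitochondrial genes. The smallest p in these lists belonged to Nnt, the nicotinamide nucleotide transhydrogenase, Cox20, an assembly factor of complex IV (F = 2.90), and Pprc1, a coactivator of the PGC-1 family (F = 2.81), each with adjusted p = 0.95. Nrf1, the gene of the factor whose letters were counted in the start regions, had F = 2.40 and Cox10, an enzyme of haem A synthesis, F = 2.44. Among the 2 genes of smallest p within each of the other lists, and the second of the carriers, were Etfdh (F = 1.02), Ogdh (F = 1.60), Fh1 (F = 1.26), Ndufaf7 (F = 1.55), Ecsit (F = 1.42), Atp5k (F = 1.55) and Atp5g3 (F = 1.37), while the mitochondrial genes ND3 and COX2 had F = 0.44 and F = 0.52. Of the markers of 9 cell types, 3 of 4 choroid plexus (led by Clic6, F = 2.61, and Kcnj13, F = 2.40), 1 of 8 skeletal muscle (Myh3, F = 2.52, then Myh8, F = 1.64) and 1 of 5 pituitary genes (Tshb, F = 2.51, then Cga) had such a p. None did among 6 neuron (Snap25 and Stmn2 first), 6 progenitor (Hes5, Sox2), 3 cardiac (Nppa, Myl7), 3 brown fat (Cidea, Plin5), 4 erythroid (Epb42, Slc4a1) and 4 testis genes (Tnp1, Prm1). Median differences of the ATP synthase subunits lay between -0.037 and 0.043 over the 12 contrasts.

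Co-variation was described over the arrays. Over the 60 arrays the median Pearson correlation between the 60 members above the dim level was 0.22 (1770 pairs, of which 75.7% were above 0), against 0.12 among the 14184 genes above the dim level (62.6% above 0). These are descriptions over arrays that share their processing and signal distribution. Neither this comparison nor those that follow with the genes above the dim level were matched for brightness. Bright and dimmer rows had median correlations of opposite sign with the lower quartile of the array, as given below. Taking each value as its deviation from the mean of its labelled group gave 0.23 and 0.12. The members' value was 0.21 to 0.23 when 1 array at a time was left out. After the median of each array had been removed by regression it was 0.18, against 0.0195 among the genes above the dim level. Centring each array on its median gave 0.16 against 0.011. Removing the lower quartile by regression, a step chosen after the data had been seen, gave 0.20 against 0.076. Several related lists had values among themselves like or above the members' 0.22. These were 0.40 for complex I assembly factors, 0.36 for TCA cycle enzymes, 0.35 for the other assembly factors and 0.23 for ATP synthase subunits. Lower values, 0.18 each, were found for regulators of mitochondrial biogenesis and for electron carriers and core subunits outside the symbol rule. The first principal component of these members held 28.6% of their variance, with the same sign of loading for 52 of 60, and the second held 15.1%.

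Complex II was the tightest of the 4. Its 6 pairs had a median correlation of 0.61, with Sdhc and Sdhd, both membrane anchors, at 0.76. The 4 complex II genes correlated with the median signal of the array at 0.52 (Sdhb) to 0.69 (Sdha). The array median was not removed for single complexes, so its part in the 0.61 was not tested. Complex III pairs had a median of 0.27, complex I pairs 0.25 and complex IV pairs 0.02, and complex II against complex III 0.42. Among single pairs the highest was Ndufs7 with Ndufs8, both iron-sulfur subunits of the complex I core, at 0.81. Sdhd with Ndufs7 stood at 0.77 and Ndufa11 with Cox6b1 at 0.76, so close pairs also crossed complexes. Within each complex, the member closest to the others was Ndufa4 (median correlation 0.41 with the other 61), Sdhc (0.37), Uqcr10 (0.36) and Cox8a (0.32). The farthest were Ndufv2 (-0.055), Sdha (0.27), Uqcrb (-0.084) and Cox6a2 (-0.23). The median was above 0 for 53 members and below 0 for 9.

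**Figure D4:**
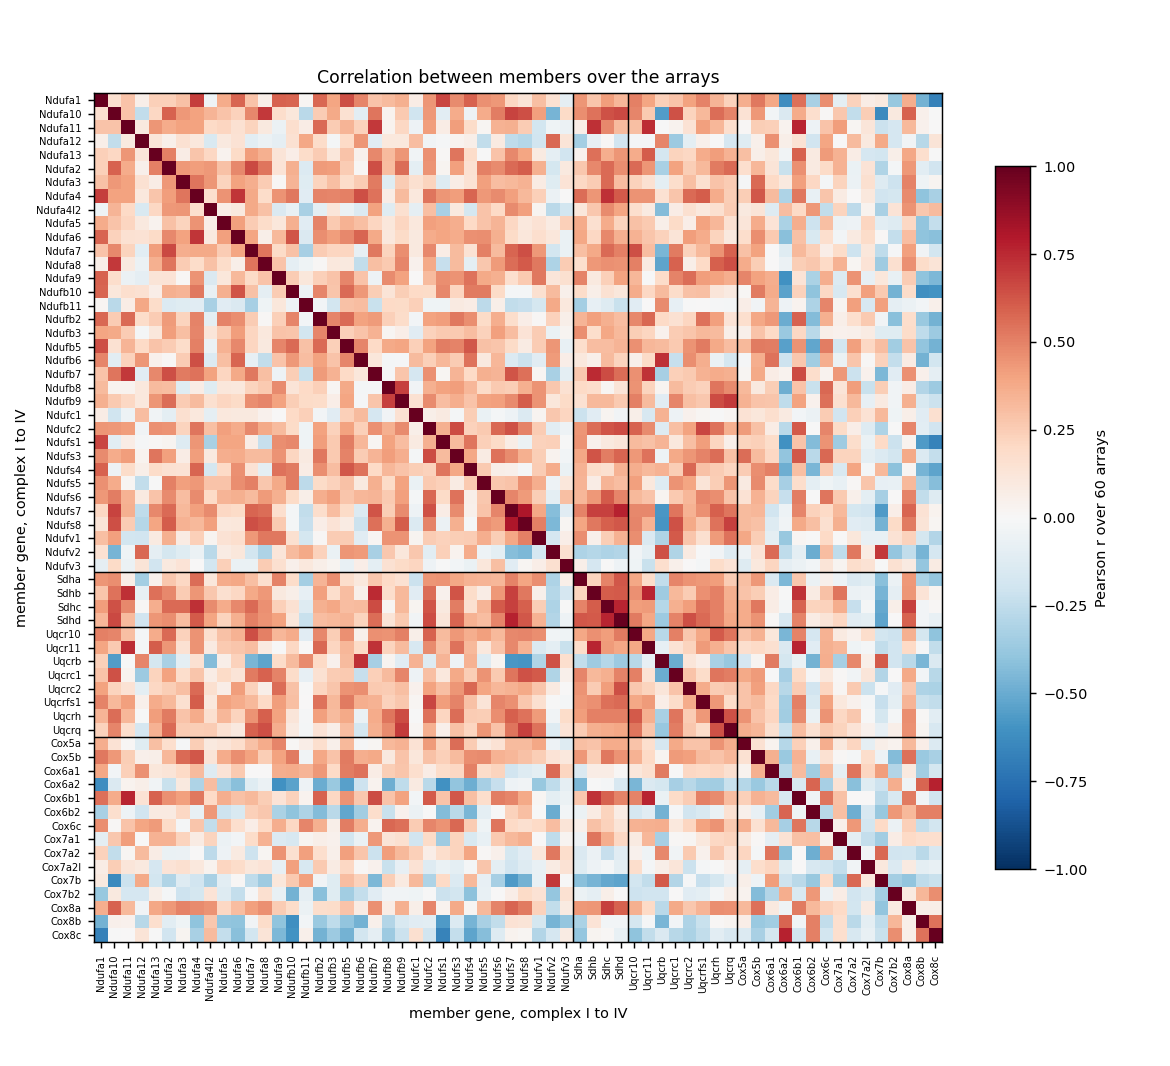
Pearson correlation over 60 arrays between every pair of the 62 members, ordered by complex I, II, III and IV, from blue (-1) to red (1). The complex II block is red throughout, while the rows of Cox6a2, Cox8b and Cox8c are mostly blue and those of Cox7b, Uqcrb and Ndufv2 are mixed.

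Uqcrb, Ndufv2 and Cox7b, all bright, were mixed in sign against the other members: Uqcrb correlated above 0 with 27 of 61, Ndufv2 with 25 and Cox7b with 20. Uqcrb, a small subunit of complex III, correlated with Ndufb6 at 0.73 and with Ndufs8 at -0.59. Cox7b correlated with Ndufv2 at 0.71, with Cox7a2 at 0.58 and with Ndufa10 at -0.64. Their correlation with the median signal of the array was -0.59 for Uqcrb, -0.60 for Cox7b and -0.47 for Ndufv2, against 0.69 for Ndufs7 and 0.67 for Sdhd. The mean profile of the members above the dim level correlated at 0.51 with the array median, -0.31 with its lower quartile, 0.54 with the mean of the neural progenitor markers and 0.03 with that of the neuron markers. With the other marker lists it was -0.39 (erythroid), -0.34 (skeletal muscle), -0.33 (testis), -0.31 (cardiac muscle), -0.12 (brown fat), 0.29 (pituitary) and 0.31 (choroid plexus). The progenitor markers had a median correlation of -0.06 among themselves. Taken singly against the members above the dim level, they had a median of 0.13, near the 0.12 among genes above the dim level. The 0.54 is a correlation between means and is not comparable with these medians over single pairs. Single progenitor markers were not correlated with the mean profile of the members. The part of these measures in the co-variation was not tested beyond the regressions given.

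The genes outside the set whose profile was most like the mean of the members were Polr2g (correlation 0.87), a subunit of RNA polymerase II, Slirp (0.82), an RNA-binding protein of mitochondria, Timm8b (0.82), a chaperone of mitochondrial protein import, Prkag1 (0.81), a regulatory subunit of AMP-activated kinase, and Hars (0.81), a histidyl-tRNA synthetase. They are the 5 highest of the measured genes over 60 arrays. The 16 ATP synthase subunits correlated with the members at a median of 0.24, complex I assembly factors at 0.26, other assembly factors at 0.26, enzymes of the TCA cycle at 0.25 and regulators of mitochondrial biogenesis at 0.15. The mitochondrial genes ND3 and COX2, subunits of complexes I and IV made inside the organelle, correlated with each other at 0.91 and with the members at a median of -0.22.

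Pairs fixed with the design gave correlations with a test. The permutation p, here and below, is against no correlation and not against the variation that genes share over these arrays. Over all pairs of genes above the dim level the upper quartile of r was 0.33. Over 60 arrays Sdha correlated with Atp5a1, the alpha subunit of ATP synthase, at r = 0.65 and rho = 0.64. Without the 2 arrays farthest from the median of Atp5a1, r was 0.70. For each pair below, the 2 arrays left out are likewise those farthest from the median of the second gene named. Uqcrc2 correlated with Atp5a1 at r = 0.64 and rho = 0.70 (0.66 without 2 arrays). For both the permutation p was 1e-05, the smallest that 100000 resamples can give, and 4.33e-05 after adjustment over the 13 pairs tested. Ndufa9 with Atp5a1 had r = 0.37 and rho = 0.32 (permutation p = 0.00408, adjusted 0.00884; r without the 2 farthest arrays 0.36), and r was 0.26 (adjusted permutation p = 0.0908) after the lower quartile of the array had been removed. Cox5a with Atp5a1 had r = 0.26 and rho = 0.26 (0.18 without 2 arrays; permutation p = 0.0472, adjusted 0.0877).

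Several forms of complex IV known from muscle or testis correlated with each other, and others did not. Cox6a2, the heart and skeletal muscle form of subunit VIa, ran from 7.36 to 8.02, and the widely expressed Cox6a1 from 10.34 to 10.57. The 2 correlated at -0.27. Cox6a2 correlated with Cox8c, a testis form, at 0.77, with Cox8b at 0.58 and with Cox6b2, another testis form, at 0.58. Cox7a1, also a muscle form, correlated with Cox6a2 at 0.14 and with Cox8b at 0.17. Cox8a, the widely expressed form, correlated with Cox8b and Cox8c at 0.06 each, Cox6b1 with Cox6b2 at -0.05, Cox7a1 with Cox7a2 at -0.09, Cox7a2 with Cox7a2l at -0.04, Cox7b with Cox7b2 at -0.34, and Ndufa4 with Ndufa4l2 at 0.17.

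The correlation of these forms with the lower quartile of the array was 0.84 for Cox6a2, 0.83 for Cox8c, 0.68 for Cox8b, 0.65 for Cox6b2, 0.44 for Cox7b2 and 0.36 for Cox7a1, whereas bright members had values down to -0.72 for Ndufs1, a core subunit of complex I, and -0.68 for Ndufb10. Over all tested rows the median of this correlation was 0.55 for rows at or below the dim level, 0.21 for those above it with a mean under 8, and -0.36 for those with a mean of 8 or more. Cox6a2 correlated with the muscle creatine kinase gene Ckm at r = 0.75 and rho = 0.77 (0.77 without the 2 farthest arrays; permutation p = 1e-05, adjusted 4.33e-05). Ckm itself correlated with the lower quartile at 0.73. With the lower quartile removed from both genes, a step chosen after the data had been seen, Cox6a2 and Ckm stood at 0.37 (adjusted permutation p = 0.0149), and Cox8b and Ckm went from 0.43 (rho 0.41, 0.36 without 2 arrays, adjusted 0.00156) to -0.13 (adjusted 0.418). Cox6a2 with the skeletal actin gene Acta1 had r = 0.45 and rho = 0.37 (0.33 without the 2 farthest arrays, adjusted permutation p = 0.0012). With the lower quartile removed, this pair had r = 0.33 (adjusted permutation p = 0.0288, 0.22 without 2 arrays). Its rho was then 0.27 (adjusted permutation p = 0.12), which did not pass. Cox7a1 passed with none of the 3 muscle genes Acta1, Ckm and Myl1 (r from -0.095 to 0.17). Of the marker lists, 5 of 8 skeletal muscle, 1 of 3 cardiac, 1 of 3 brown fat and 2 of 4 testis genes were above the dim level. The mean over the skeletal muscle markers ran from 6.64 to 7.05.

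**Figure D5:**
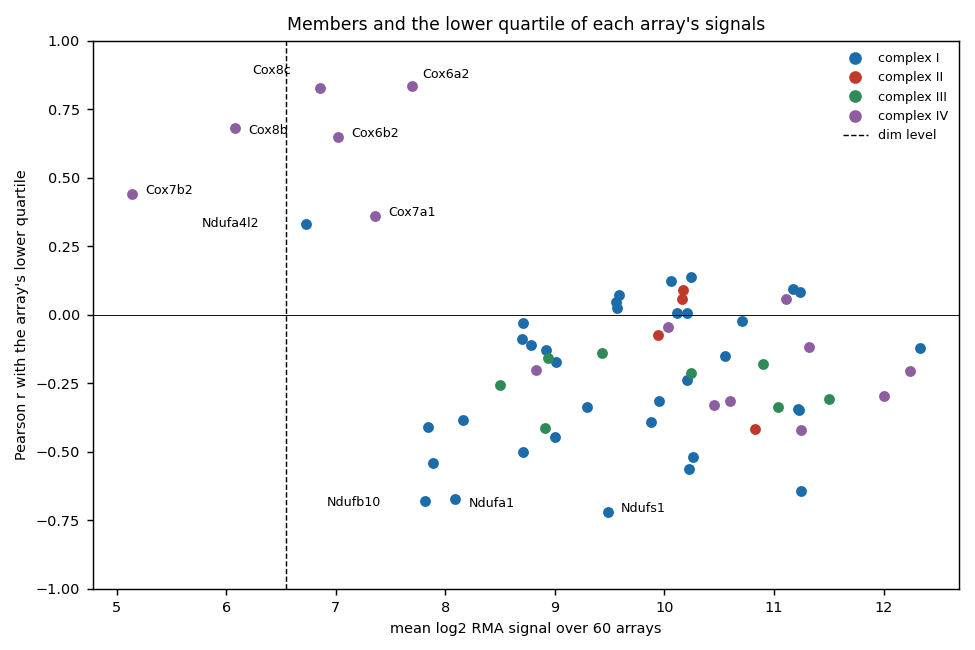
Correlation of each of the 62 members with the lower quartile of the array (vertical axis, Pearson r over 60 arrays) against its mean log2 signal (horizontal axis), coloured by complex, with the dim level of 6.54 as a dashed line. Cox6a2 (0.84) and Cox8c (0.83) stand highest and Ndufs1 (-0.72) lowest.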

How the data were processed

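Total RNA pooled from the fetal brains of each dam was hybridised to 1 array. The deposited values are log2 signals that the authors made with RMA, with oligo 1.22.0 under R 2.15.1, per the submitters' processing notes and the deposited session record; the genome build is not given in the sources used here. They were used as deposited, and their number limits the precision.

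Of 28858 rows, 21789 had a single gene symbol in the platform annotation and were tested, 1621 had several and 5448 had none. limma 3.58.1 in R 4.3.3 fitted 1 mean for each of the 12 labelled groups to all 60 arrays, with 2-sided tests. The members and lists were chosen with earlier results of these data known. Text names the 4 members of smallest p in the F test, the 2 of smallest p in each contrast, the isoform sets, the 5 largest and smallest SDs, the extremes of co-variation in each complex, the 5 nearest genes outside the set and the 2 genes of smallest F-test p in each list; others were chosen after their values were seen. Lists held ATP synthase subunits, electron carriers, assembly factors, biogenesis regulators, TCA cycle enzymes, mitochondrial genes and markers of 9 cell types. On simulated data for CPO 0.75 in WT (21789 rows, 50 changed rows per size), the test recovered 36% of changes of 0.25. It recovered 94% of 0.5 and 100% of 1 and 2 log2 units. All sizes were planted together in the same simulated set with independent noise, so these shares do not hold for a small change on its own.

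Same-numbered arrays of different groups were not paired: their deviations correlated at a mean of -0.009, against 0.003 for other numbers, and 8 of 60 arrays correlated best with their own number. Alternatives were array weights, a trended robust prior, leaving out dim rows, all rows, centring, the lower quartile as covariate, the replicate block, only the groups compared, no arrays against their label, and leaving out each array.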

Additional observations from a re-analysis of the deposited data

Results flagged for a closer look

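A gap test (Dixon's, at its 95% value) was applied to 145 groups of 5 arrays, those of the genes named by p-value in their comparisons and the mean deviations of each complex. It marked 8, and chance marks about 1 in 20 groups. In each, 1 array stood apart from the other 4.

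Cox7a2l was 9.06 in Q-tg at dose 0 replicate 3, an array whose Pon1 went against its label, above the 8.72 to 8.79 of the others. Ndufa10 was 10.68 in KO at dose 0 replicate 1, below 10.78 to 10.79. Ndufa11 was 10.11 in KO at 0.50 replicate 3, below 10.32 to 10.38. Sdha was 10.98 in R-tg at dose 0 replicate 1, above 10.80 to 10.85. The mean deviation of complex IV genes was 0.048 in WT at dose 0 replicate 1, above -0.0023 to 0.011, and -0.019 in R-tg at 0.85 replicate 4, below 0.010 to 0.021. The mean deviation of all members was 0.053 in WT at 0.85 replicate 1, above -0.014 to 0.0036, and -0.063 in KO at 0.50 replicate 3, below 0.014 to 0.034.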

How the results depend on the processing

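The count of members that passed was 0 in each comparison under each of its alternatives, 0 to 0 when 1 array at a time was left out, and 0 with the replicate number as a block, so the block changed no call. Over all rows, other fits called up to 79 in the F test, 39 in WT at 0.75 and 29 in KO against WT. The 2 members of smallest p in each contrast kept the sign of their difference there in every fit run; other differences named were not refitted. Leaving out 1 array gave a median correlation of 0.207 to 0.229. Of the 13 gene pairs, removing the lower quartile (added after seeing the data) turned Cox7a1 with Ckm to -0.143, Cox8b with Acta1 to -0.13 and Cox8b with Ckm to -0.131, and centring turned Cox8b with Myl1 to 0.0014; the cause was not tested. Removing the lower quartile moved Cox6a2 with Myl1 from 0.19 to 0.338 (adjusted permutation p = 0.0268; 0.194 without the 2 farthest arrays, rho 0.242 with adjusted p = 0.138), and centring moved Ndufa9 with Atp5a1 to 0.282 (adjusted permutation p = 0.0603). Regrouping by a deposited note was not run, since that note states no groups. Signals near background limit Cox7b2 and Cox8b. Removing the array median, and leaving out R-tg control replicate 1 for complex II as a whole, were also chosen after seeing the data.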
